A study of Homo sapiens with 15 samples.

Results

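The 9 genes described here belong to the NRF2 antioxidant response and were chosen by name from a table of 23368 genes. NFE2L2 encodes the transcription factor NRF2 and KEAP1 its inhibitor. SLC7A11, GCLC and GCLM supply glutathione, TXNRD1 and SRXN1 act in the thioredoxin branch, NQO1 reduces quinones and HMOX1 breaks down heme. Their levels were read in 15 RNA-seq libraries, 1 for each of 3 breast cancer cell clones at 0, 1, 2.5, 5 and 25 ng/ml doxycycline. Each clone grew from 1 cell and carries a FLAG-tagged RBM47 transgene, which encodes an RNA-binding protein and is switched on by doxycycline from a retroviral tetracycline-responsive vector. WT6 and WT10 cells carry wild type RBM47, and MUT3 cells carry the frameshift mutant RBM47-I281fs. The labels name MDA231 as the line of every clone, whereas the methods of the study derive WT10 and MUT3 from a brain metastatic derivative of MDA231 and WT6 from the brain metastatic line CN34-BrM2. Transgene, clone and parental line can therefore not be told apart in a comparison of WT6 with MUT3. The same holds for clone and parental line between WT6 and WT10, and for transgene and clone between WT10 and MUT3.

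NRF2 is held in the cytoplasm by KEAP1, which links it to a ubiquitin ligase built on CUL3 and so marks it for destruction. Oxidants and electrophiles modify KEAP1, NRF2 then accumulates, pairs with a small MAF protein and binds antioxidant response elements at its target genes, while BACH1 competes for the same elements. NRF2 is regulated mainly at the protein level, so the level of its mRNA is not a measure of its activity, and its targets are read as a group for that purpose. In breast and other cancers, a constantly active NRF2 program is known for resistance to oxidative stress and to drugs.

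The element bound by NRF2 has a core of the letters TGACNNNGC, and this core was searched on both strands in RefSeq promoter windows of build GRCh38.p14 that reach from 250 bases before to 50 bases after each gene start. Of 35116 windows, 13.3% held it. Windows, 10 in all, were found for 7 of the 9 genes (not for SLC7A11 or HMOX1), some of which had 2. Counted by gene, and so on another scale than that share of windows, 3 of those 7 (KEAP1, GCLM and TXNRD1) held matches. They are printed below to show how the letters stand before the start of the inhibitor itself and of 2 enzymes, each with 10 bases on either side, in the direction of the gene and with the match in capitals. A match beginning with GC lies on the opposite strand.
GCLM chr1:93909446-93909474 on the minus strand: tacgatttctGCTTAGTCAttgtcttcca
KEAP1 chr19:10502784-10502812 on the minus strand: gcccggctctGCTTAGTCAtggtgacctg
KEAP1 chr19:10502807-10502835 on the minus strand: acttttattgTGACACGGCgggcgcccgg
TXNRD1 chr12:104286920-104286948 on the plus strand: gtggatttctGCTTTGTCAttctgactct
TXNRD1 chr12:104215670-104215698 on the plus strand: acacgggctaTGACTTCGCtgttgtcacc
GCLM and KEAP1 shared the same 9 letters, 34 and 31 bases before their starts. A further match at TXNRD1 began 8 bases before a start and ran towards the transcript. A match is a description of letters and does not show binding. The windows reach only 250 bases before the start, so a gene without a match may hold the letters further away. No share counted by gene over all genes is given, so the 3 of 7 is not read as many or few.

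RBM47 itself was read first, since it checks the labels. Over the 5 doses its normalized count, which is the number of reads on the gene divided by the DESeq size factor of the library, was 258, 3137, 8094, 3966 and 10425 in WT6, 168, 827, 2822, 8134 and 19877 in WT10, and 73.8, 92.1, 336, 949 and 22084 in MUT3. It rose at each step in WT10 and MUT3, but in WT6 the 2.5 ng/ml library stood above the 5 ng/ml library. The libraries held between 14955172 and 44771871 reads on genes, and 3 reads corresponded to between 1.19 and 4.09 in normalized units. The mesenchymal genes VIM and CD44 were high in every library (at least 50755 and 7100). So were the keratin genes KRT8 and KRT18 (at least 8159 and 8663), which are epithelial markers, and the keratin gene KRT19 lay between 1061 and 3994. The epithelial gene EPCAM lay between 136 and 456, while the highest CDH1 count was 19.9. Among the receptor genes, ERBB2 lay between 1018 and 1584, while ESR1 did not exceed 11.97 and PGR 23.83. Of the markers of other cells, PTPRC (leukocytes) did not exceed 6.18 and PECAM1 (endothelium) 9.19. GFAP (astrocytes) lay between 55.9 and 73.4 in WT6 and reached 22.2 in WT10 and 32.6 in MUT3. ALB (liver) reached 5.97 in WT6, 53.0 in WT10 and 42.2 in MUT3. In WT6, 2 libraries stood apart by transcript length: at 5 and 25 ng/ml the median log2 change from untreated was 0.60 and 0.58 among the shortest 20% of transcripts, and -0.41 and -0.46 among the longest 20%. In the 10 libraries of WT10 and MUT3 no such 20% class moved by more than 0.082 from 0. Slopes in WT6 were therefore also fitted without these 2 libraries, which leaves its doses up to 2.5 ng/ml.

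Change with dose was fitted in limma, with the log2 of the normalized count plus 1 against log2(dose + 1) and a slope per clone, and p-values were adjusted by Benjamini and Hochberg over 12644 genes. A slope of 0.10 is a change of 0.10 in log2 units for each unit of log2(dose + 1). With 1 library per clone and dose there are no replicates of a condition, and the scatter of the 5 doses about each line stands in for the error. A gene is said to rise or fall only where its adjusted p was under 0.05.

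Few of the 9 genes passed the test for a change with doxycycline dose. In WT6, 2 of 9 passed the test, against 57.5% of all genes, with HMOX1 rising and SLC7A11 falling. In WT10, 1 of 9 passed, against 20.0% of all genes, and it was HMOX1, which fell. In MUT3, 0 of 9 passed by limma, 0 had an unadjusted p under 0.05, and 0 passed with edgeR or DESeq2, against 0.00% of all genes. The difference of the averaged WT6 and WT10 slope from the MUT3 slope passed for 0 of 9 by limma and likewise with edgeR and DESeq2, against 24.6% of all genes, and KEAP1 had the lowest unadjusted p (0.0315). The median slope over the 9 genes was -0.03 in WT6, 0.01 in WT10 and 0.01 in MUT3, beside 0.01, -0.0027 and 0.0033 over all genes tested. The WT10 count depended on the setting, and so did the count over all genes. After trends of transcript length and GC content were removed from each library, 4 of 9 passed, beside 4368 of 12113 genes. Without WT6 at 5 and 25 ng/ml 5 of 9 passed in WT10, beside 4915 of 12644 genes. Without the 25 ng/ml libraries 0 of 9 did, beside 17 of 12644 genes. Without WT6 at 5 and 25 ng/ml, TXNRD1 was the 1 gene of the 9 to pass in WT6 (0.39, adjusted p = 0.0191), beside 182 of 12644 genes. The slopes of the others of the 9 there ran from -0.12 (KEAP1) to 0.30 (SLC7A11).

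**Figure D1:**
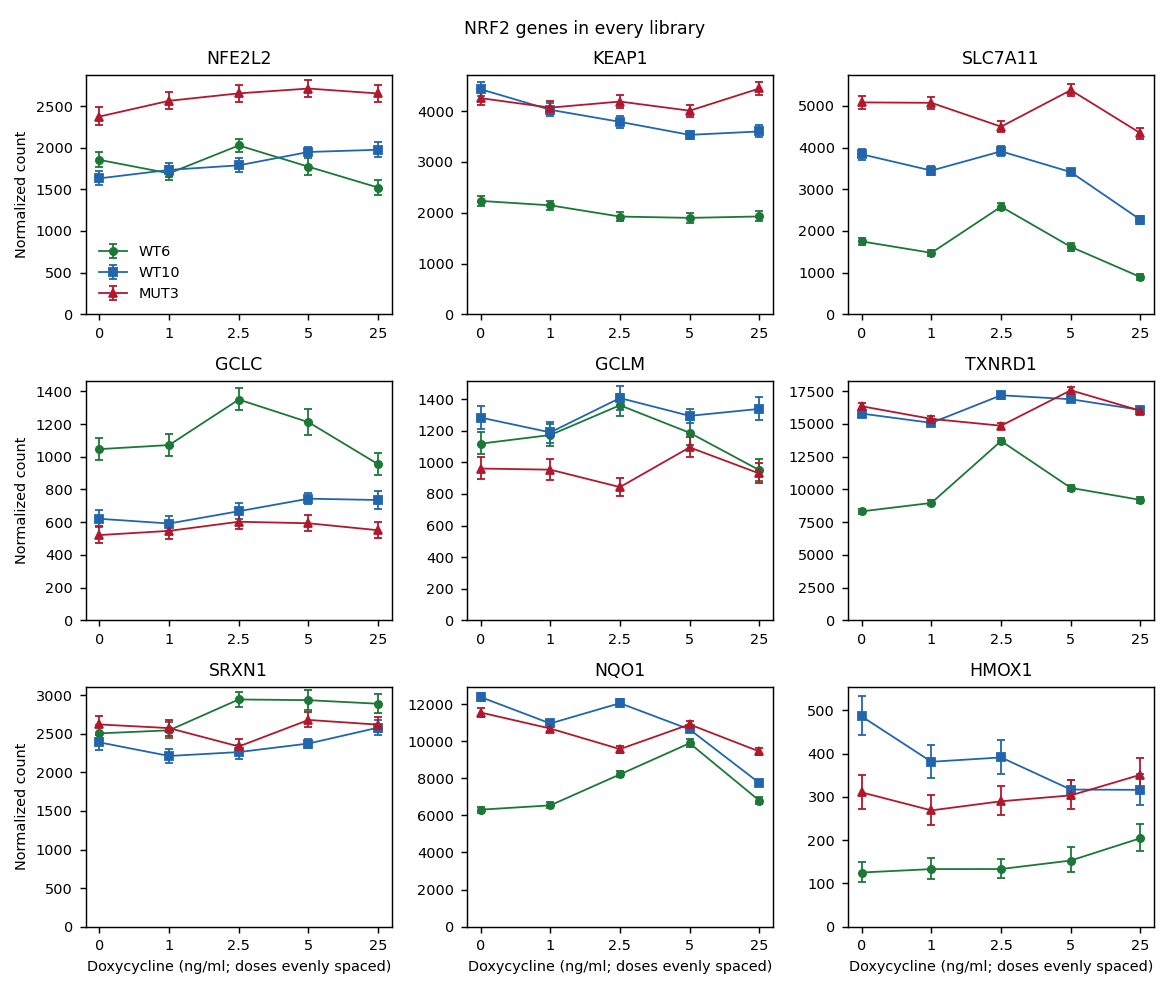
Normalized counts of the 9 NRF2 genes (vertical axes from 0) against doxycycline in ng/ml, with doses evenly spaced; each point is 1 library, bars are 95% Poisson intervals of counting error, and colours mark WT6, WT10 and MUT3. KEAP1, TXNRD1 and HMOX1 lie lower in all 5 WT6 libraries than in the 10 others, GCLC lies higher, and 6 of the 9 genes peak in WT6 at 2.5 ng/ml.

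The regulators come first. NFE2L2 (chr2:178083395-178257484 in hg19, minus strand; the annotated span overlaps several genes on either strand, among them HNRNPA3 and AGPS) had normalized counts of 1853, 1692, 2027, 1771 and 1521 in WT6, 1631, 1733, 1788, 1948 and 1975 in WT10, and 2374, 2563, 2652, 2710 and 2650 in MUT3. All 5 MUT3 libraries stood above all WT10 libraries, whereas WT6 and WT10 overlapped. In WT10 each dose gave a higher count than the one before it, and at 25 ng/ml the level was 1.21 times that of untreated cells (95% counting interval 1.13 to 1.3). The slope there was 0.06 (SE 0.03) with an adjusted p of 0.134. In WT6 it was -0.05 (SE 0.03, adjusted p = 0.104), and the slopes of the 2 wild type clones differed by -0.11 (SE 0.04, adjusted p = 0.0580), which missed the threshold. With a term for each dose, which pairs the clones by dose, this difference passed (-0.12, adjusted p = 0.0339). The NFE2L2 slope in WT6 was 0.06 (adjusted p = 0.653) without its libraries at 5 and 25 ng/ml. Counting used the default settings of HTSeq, which assume stranded reads, and whether the libraries keep strand is not given in the sources used here, so reads of overlapping genes on opposite strands may not be told apart.

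KEAP1 (chr19:10596801-10614234, minus strand) had counts of 2233, 2146, 1925, 1899 and 1927 in WT6, 4434, 4028, 3791, 3535 and 3602 in WT10, and 4258, 4071, 4191, 4011 and 4448 in MUT3. The untreated library was the highest of the 5 in both wild type clones, and the 25 ng/ml library was the highest in MUT3. At 25 ng/ml KEAP1 stood at 0.863 of the untreated level in WT6 (0.807 to 0.922), 0.812 in WT10 (0.776 to 0.850) and 1.04 in MUT3 (0.998 to 1.09). The slopes were -0.05 in WT6 and -0.06 in WT10 (SE 0.02 each, adjusted p = 0.114 and 0.0772), and their mean lay 0.07 below that of MUT3 (-0.07, SE 0.03, adjusted p = 0.0924). With length and GC trends removed, KEAP1 fell in WT6 (-0.10, adjusted p = 1.11e-05) and in WT10 (-0.05, adjusted p = 0.00284), and its difference from MUT3 passed as well (-0.08, adjusted p = 0.000817). That difference also passed with the clones paired by dose (-0.07, adjusted p = 0.0393). Its WT6 slope was -0.12 (adjusted p = 0.337) without 5 and 25 ng/ml.

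Among the genes of glutathione supply, SLC7A11 (chr4:139085251-139163503, minus strand, with SLC7A11-AS1 on the other strand) encodes the light chain of the exchanger that imports cystine, the limiting precursor of glutathione. Its counts were 1748, 1474, 2582, 1619 and 893 in WT6, 3838, 3448, 3910, 3412 and 2268 in WT10, and 5083, 5073, 4501, 5378 and 4345 in MUT3. The 25 ng/ml library was the lowest of all 5 in each clone, at 0.511 of untreated in WT6 (0.467 to 0.558), 0.591 in WT10 (0.560 to 0.623) and 0.855 in MUT3 (0.818 to 0.893). The slope was -0.19 in WT6 (SE 0.07, adjusted p = 0.0328), -0.16 in WT10 (SE 0.07, adjusted p = 0.113) and -0.04 in MUT3 (SE 0.07, adjusted p = 1.00), so the fall passed in WT6 only, and the difference between WT6 and WT10 was -0.03 (SE 0.10, adjusted p = 0.822).
The WT6 slope of SLC7A11 rested on 1 library: without 25 ng/ml it was 0.06 (adjusted p = 0.700), and without 5 and 25 ng/ml 0.30 (adjusted p = 0.258). Its transcript of 9645 bases is longer than that of 95.3% of genes, and with length and GC trends removed the slope was -0.07 in WT6 (adjusted p = 0.252) and -0.17 in WT10, where it then passed (adjusted p = 0.0110).

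**Figure D2:**
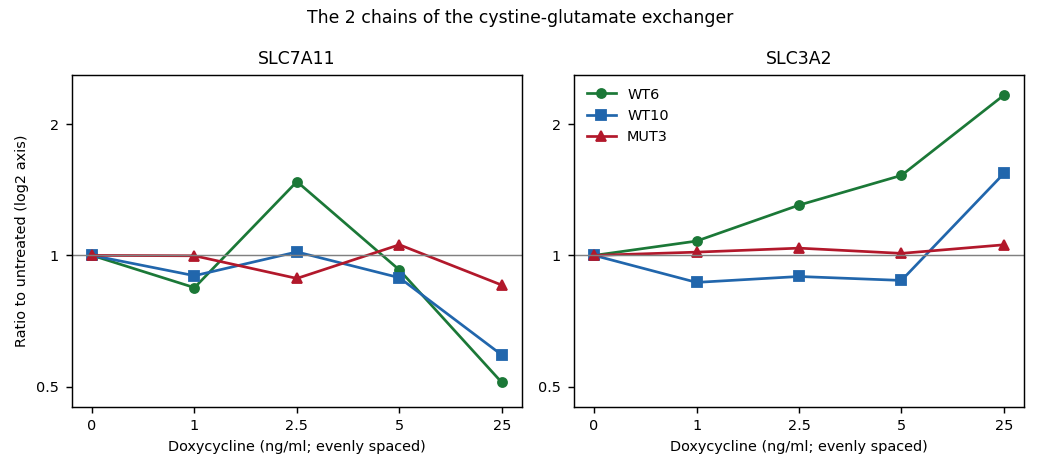
Ratio of the normalized count to that of the untreated library of the same clone (log2 axis) for SLC7A11 and SLC3A2, against doxycycline in ng/ml with doses evenly spaced; each point is 1 library. At 25 ng/ml SLC7A11 stands at 0.511 and SLC3A2 at 2.33 in WT6, 0.591 and 1.54 in WT10, and 0.855 and 1.06 in MUT3.

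SLC3A2, the heavy chain that carries SLC7A11 and several other amino acid transporters to the cell surface, went the other way at 25 ng/ml. Its counts were 14623, 15773, 19072, 22317 and 34096 in WT6, 15565, 13496, 13924, 13638 and 23999 in WT10, and 9550, 9717, 9924, 9653 and 10101 in MUT3. It rose in WT6 (0.27, SE 0.04, adjusted p = 0.00011) and in WT10 (0.14, SE 0.04, adjusted p = 0.0243), and its mean wild type slope exceeded that of MUT3 by 0.19 (SE 0.05, adjusted p = 0.0140). In WT10 the rise of SLC3A2 lay in the 25 ng/ml library alone, without which the slope was -0.06 (adjusted p = 0.472). Without that library the WT10 slope of SLC7A11 was negative too. The WT6 slope of SLC3A2 was 0.21 without WT6 at 5 and 25 ng/ml (adjusted p = 0.324), where that of SLC7A11 was positive too.

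GCLC (chr6:53362139-53481768, minus strand, with GCLC-AS1 and LINC01564 opposite) encodes the catalytic subunit of glutamate-cysteine ligase, the enzyme of the first step of glutathione synthesis. Its counts were 1047, 1072, 1350, 1211 and 954 in WT6, 621, 592, 667, 744 and 736 in WT10, and 521, 547, 603, 594 and 551 in MUT3. Each WT6 library exceeded all 10 others. The slopes were -0.03, 0.07 and 0.02 (SE 0.04 each), and none passed (adjusted p = 0.556, 0.255 and 1.00). The GCLC slope in WT6 was 0.20 (adjusted p = 0.140) without its libraries at 5 and 25 ng/ml.

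GCLM (chr1:94350755-94375012, minus strand), the modifier subunit of the same ligase, had counts of 1118, 1172, 1361, 1187 and 950 in WT6, 1283, 1189, 1406, 1294 and 1338 in WT10, and 960, 953, 843, 1094 and 929 in MUT3. All WT10 libraries stood above all MUT3 libraries, and WT6 overlapped both. The slopes were -0.05, 0.02 and 0.0023 (SE 0.04 each), with adjusted p of 0.230, 0.757 and 1.00. The GCLM slope in WT6 was 0.15 (adjusted p = 0.340) without its libraries at 5 and 25 ng/ml.

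In the thioredoxin branch, TXNRD1 (chr12:104609557-104744085, plus strand), the reductase that recharges thioredoxin with NADPH, had counts of 8322, 8967, 13694, 10116 and 9198 in WT6, 15786, 15077, 17183, 16882 and 16064 in WT10, and 16345, 15380, 14860, 17564 and 16002 in MUT3. The 5 WT6 libraries lay below the 10 others, and the one at 2.5 ng/ml came closest to them, at 1.65 times untreated. The slopes of TXNRD1 were 0.02, 0.01 and 0.01 (SE 0.05 each), and none passed. Up to 2.5 ng/ml alone, without the 2 WT6 libraries that stood apart, TXNRD1 rose in WT6 (0.39, adjusted p = 0.0191). That rise rested on the 2.5 ng/ml library (13694, beside 8322 and 8967), with a spread estimated mostly from the other clones.

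SRXN1 (chr20:627259-633844, minus strand), which restores overoxidized peroxiredoxins, passed in none of the 3 comparisons of level between clones given below. Its counts were 2507, 2548, 2948, 2939 and 2892 in WT6, 2391, 2214, 2265, 2376 and 2582 in WT10, and 2624, 2576, 2338, 2682 and 2621 in MUT3. The 3 clones overlapped, and the slopes were 0.05, 0.03 and 0.01 (SE 0.03 each), none of which passed. The SRXN1 slope in WT6 was 0.13 (adjusted p = 0.302) without its libraries at 5 and 25 ng/ml.

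NQO1 (chr16:69740899-69760571, minus strand), a quinone reductase often used as a readout of NRF2, had counts of 6314, 6546, 8219, 9904 and 6804 in WT6, 12399, 10972, 12066, 10648 and 7756 in WT10, and 11563, 10697, 9585, 10919 and 9458 in MUT3. In WT10 it stood at 0.626 of untreated at 25 ng/ml (0.607 to 0.644), and in MUT3 at 0.818 (0.794 to 0.842). In WT6 it climbed to 1.57 times untreated at 5 ng/ml and was 1.08 times untreated at 25 ng/ml. The slope in WT10, -0.14 (SE 0.05), just missed the threshold (adjusted p = 0.0506), and passed with DESeq2 (adjusted p = 0.0310) and with length and GC trends removed (-0.17, adjusted p = 0.0025). In WT6 it was 0.04 (SE 0.05, adjusted p = 0.460), and the slopes of WT6 and WT10 differed by 0.18 (SE 0.07, adjusted p = 0.0749), a difference that passed with the clones paired by dose (0.18, adjusted p = 0.0415). The NQO1 slope in WT6 was 0.21 (adjusted p = 0.165) without its libraries at 5 and 25 ng/ml.

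HMOX1 (chr22:35776354-35790207, plus strand), which opens the heme ring and frees iron, had the lowest counts of the 9 genes and was the one that passed in both wild type clones. Its counts were 125, 133, 133, 153 and 204 in WT6, 486, 381, 391, 317 and 316 in WT10, and 310, 269, 290, 303 and 351 in MUT3. At 25 ng/ml it was 1.64 times untreated in WT6 (1.28 to 2.10), 0.651 of untreated in WT10 (0.561 to 0.754) and 1.13 times untreated in MUT3 (0.957 to 1.34). The slope was 0.16 in WT6 (SE 0.04, adjusted p = 0.00636), -0.13 in WT10 (SE 0.03, adjusted p = 0.0178) and 0.06 in MUT3 (SE 0.04, adjusted p = 1.00). HMOX1 thus rose in one wild type clone and fell in the other, and the slopes of WT6 and WT10 differed by 0.29 (SE 0.06, adjusted p = 0.0125). That was the only one of the 9 genes to pass this comparison, against 14.4% of all genes. WT10 also differed from MUT3, by -0.18 (SE 0.05, adjusted p = 0.0431), again as 1 of 9 against 5.62% of all genes. This last difference was past the threshold in 10 of 30 alternative fits. It was not past it with edgeR (adjusted p = 0.0543), with no filter (0.0586), with no weights (0.0623) or without any 1 library of WT10 or MUT3 (0.0563 to 0.676).
The WT6 rise of HMOX1 was not past the threshold without the 25 ng/ml library (0.10, adjusted p = 0.366) or without both 5 and 25 ng/ml (0.05, adjusted p = 0.897), and without both the difference of HMOX1 from WT10 was 0.18 (adjusted p = 0.920). The WT10 fall was not past it without the untreated WT10 library (-0.08, adjusted p = 0.196) or the one at 25 ng/ml (-0.21, adjusted p = 0.134), and the difference between WT6 and WT10 was not without WT6 at 25 ng/ml (0.23, adjusted p = 0.115) or WT10 untreated (0.24, adjusted p = 0.0768). Its transcript of 1554 bases falls among the shortest 20%, and with length and GC trends removed its WT6 slope was 0.02 (adjusted p = 0.631), while the WT10 fall (-0.13, adjusted p = 0.00221) and the difference between the clones (0.16, adjusted p = 0.0453) remained past the threshold.

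**Figure D3:**
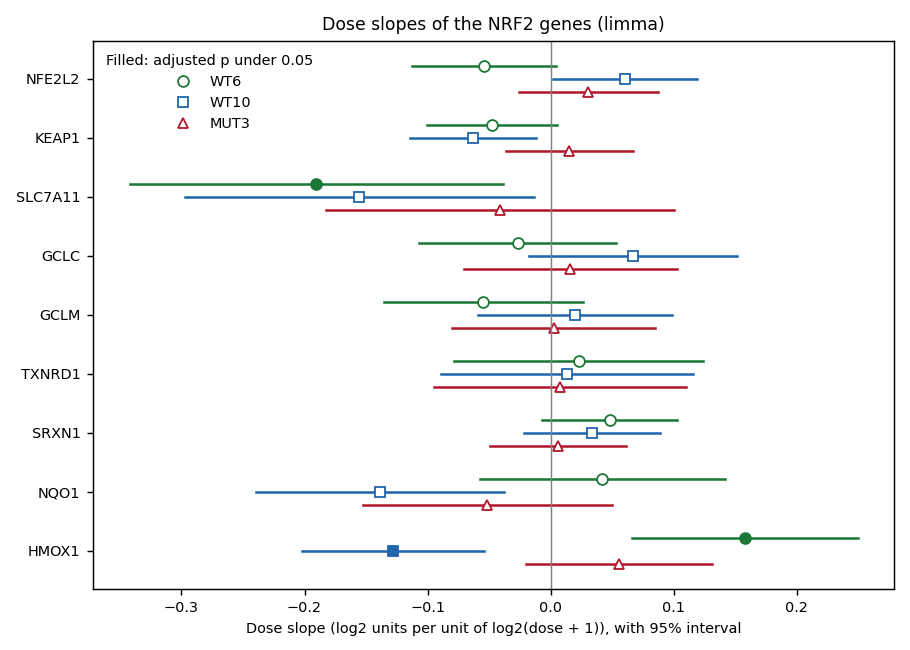
Dose slope (log2 units per unit of log2(dose + 1)) of each of the 9 genes in WT6, WT10 and MUT3 from limma, with bars for 95% intervals and filled symbols for an adjusted p under 0.05. HMOX1 is filled in WT6 (0.16) and WT10 (-0.13), SLC7A11 in WT6 (-0.19), and the MUT3 slopes lie between -0.05 and 0.06.

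In WT6 many of the 9 genes did not follow the order of the doses. Of the 9 genes, 6 (NFE2L2, SLC7A11, GCLC, GCLM, TXNRD1 and SRXN1) were highest at 2.5 ng/ml in this clone, where 14.0% of all genes tested were highest. Relative to untreated cells, that library had 1.65 times the TXNRD1 count, 1.48 times that of SLC7A11, 1.29 times that of GCLC, 1.22 times that of GCLM, 1.18 times that of SRXN1 and 1.09 times that of NFE2L2. It was also the WT6 library with more RBM47 than the one at the next dose, 8094 against 3966, and its median log2 change in the 20% classes of transcript length stayed between -0.03 and -0.0064. In WT10, 3 of the 9 genes were highest at 2.5 ng/ml against 12.7% of all genes, and in MUT3 5 of 9 were highest at 5 ng/ml against 22.8%. These counts come from 1 library each and carry no test.

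More of the 9 genes passed between clones than with dose. Over all genes this did not hold throughout, as the WT6 slope passed for 57.5%, above the 28.2% of WT10 against MUT3. As fitted at 0 ng/ml, WT6 differed from MUT3 in 8 of 9 genes (background 61.7%), WT6 from WT10 in 6 of 9 (59.6%) and WT10 from MUT3 in 3 of 9 (28.2%), the last 2 close to the background. Without WT6 at 5 and 25 ng/ml the counts were 7, 6 and 3 of 9. For WT10 against MUT3 the background then rose from 3562 to 5903 of 12644 genes. KEAP1 was lower in WT6 than in WT10 by 0.97 on the log2 scale (-0.97, SE 0.09, adjusted p = 2.33e-07) and than in MUT3 (-0.93, SE 0.09, adjusted p = 3.15e-07). HMOX1 was lower in WT6 than in WT10 (-1.91, SE 0.15, adjusted p = 3.16e-08) and than in MUT3 (-1.25, SE 0.15, adjusted p = 3.8e-06).
SLC7A11 was lower in WT6 than in WT10 (-1.0, SE 0.25, adjusted p = 0.00247) and MUT3 (-1.32, SE 0.25, adjusted p = 0.000253), as were TXNRD1 (-0.73 and -0.72, SE 0.17 each) and NQO1 (-0.88 and -0.67, SE 0.17 each). GCLC went the other way, higher in WT6 than in WT10 (0.93, SE 0.14, adjusted p = 4.09e-05) and MUT3 (1.08, SE 0.14, adjusted p = 9.56e-06). Relative to both other clones, WT6 cells thus had less of the inhibitor KEAP1, less of 4 NRF2 target genes and more of another.
Between WT10 and MUT3, which share a parental line, NFE2L2 was lower in WT10 (-0.57, SE 0.10, adjusted p = 0.00054), HMOX1 was higher (0.67, SE 0.13, adjusted p = 0.00115) and GCLM was higher (0.41, SE 0.14, adjusted p = 0.0363). The GCLM difference lost its call when any of several single libraries was left out, with adjusted p up to 0.133 without untreated WT10. NFE2L2 was also lower in WT6 than in MUT3 (-0.38, SE 0.10, adjusted p = 0.00339), and GCLM higher (0.39, SE 0.14, adjusted p = 0.0245), though not past the threshold without WT6 at 25 ng/ml (0.27, adjusted p = 0.0977). Without untreated WT6, NQO1 missed the threshold against MUT3 (-0.50, adjusted p = 0.0548), and SLC7A11 missed it against WT10 (-0.74, adjusted p = 0.0546).

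Taken over all 5 libraries of a clone, with no reference to dose, KEAP1, TXNRD1 and HMOX1 in WT6 lay below the 10 other libraries, as did 17.7% of all genes, and GCLC lay above them, as did 18.3%. NFE2L2 and SLC7A11 in WT10 lay below all MUT3 libraries (20.4% of all genes), and GCLM lay above them (16.6%).

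Divided by transcript length, NQO1 and TXNRD1 were the most abundant of the 9 genes in every clone. In WT10 their medians over 5 libraries were 4352 and 4162 normalized counts per kb, and their ranges overlapped. KEAP1 (1478), SRXN1 (940) and NFE2L2 (731) followed with ranges that did not overlap their neighbours, then SLC7A11 (357), GCLM (265) and HMOX1 (245), whose ranges overlapped one another, and GCLC (176) lay below the lowest HMOX1 value.
In MUT3, NFE2L2 (1084 per kb) and SRXN1 (1037) overlapped, as did GCLM (195.2) and HMOX1 (195.1), and SLC7A11 lay clear of both pairs at 526. WT6 had another order, with SRXN1 at 1144, above KEAP1 (751) and NFE2L2 (724), which overlapped each other. In that clone GCLC (283) overlapped GCLM (240), SLC7A11 (168) overlapped GCLM, and HMOX1 was last at 85.6, overlapping the lowest values of SLC7A11.

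**Figure D4:**
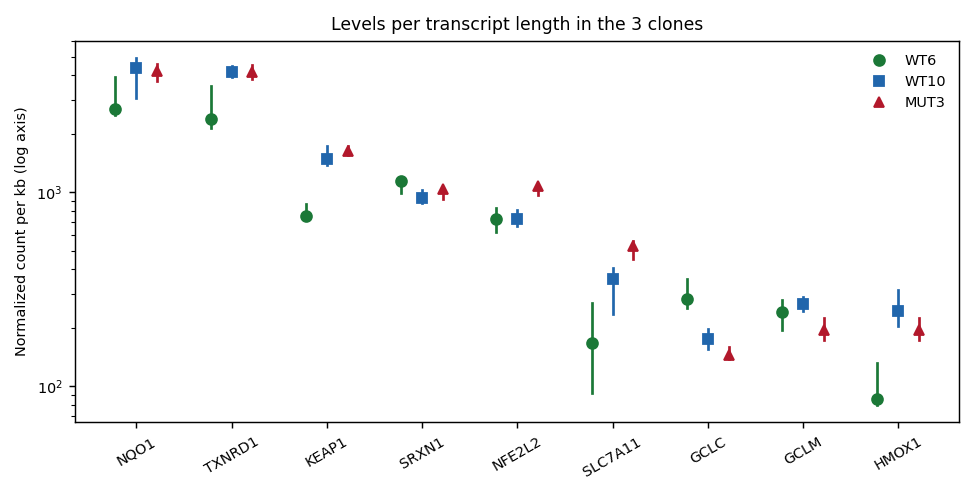
Normalized count per kb of transcript (log axis) of the 9 genes in WT6, WT10 and MUT3; symbols are medians and lines the full range over the 5 libraries of a clone. NQO1 and TXNRD1 lead in every clone, and HMOX1 is lowest in WT6 at a median of 85.6 per kb.

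To place the 9 genes in their pathway, 57 further genes were grouped by role, and 54 of them were abundant enough to test (GPX2, AKR1C2 and AKR1B10 were not). In WT6, 30 rose and 6 fell of 54, in WT10 15 rose and 6 fell, and in MUT3 0 did by limma, edgeR or DESeq2, with AKR1C1 and GGT1 alone under an unadjusted p of 0.05. The mean wild type slope exceeded that of MUT3 for 13 and lay below it for 3 of 54. Among all genes 29.2% rose and 28.3% fell in WT6, 10.2% rose and 9.83% fell in WT10, and 10.1% lay above and 14.6% below MUT3. Both wild type shares, 66.7% in WT6 and 38.9% in WT10, were above the background of 57.5% and 20.0%, and the share differing from MUT3 was 29.6% beside 24.6%. The median slope was 0.14 in WT6, 0.05 in WT10 and 0.00013 in MUT3. The 54 genes had a median transcript length of 2082 bases, against 3302 over all genes tested. With length and GC trends removed the median slope was 0.04 in WT6, with 23 rising and 11 falling, and 0.04 in WT10, with 23 rising and 10 falling. Over all genes, 1877 of 12113 then rose in WT10 and 2491 fell. For WT6 no count over all genes with trends removed is set beside these counts or those by role below. They are therefore not read as more or fewer than among all genes. Without WT6 at 5 and 25 ng/ml, 5 rose and 0 fell in WT6, where 130 of 12644 genes rose and 52 fell. Without the 25 ng/ml libraries of all clones, 0 of 54 passed in WT10, where 17 of 12644 genes did. In WT6 24 then rose and 4 fell, beside 2416 and 2272 of 12644 genes. The difference from MUT3 then passed for 0 of 54 and for 1 of 12644 genes. Without WT6 at 5 and 25 ng/ml that difference passed for 8 higher and 3 lower, beside 668 and 927 of 12644 genes.

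**Figure D5:**
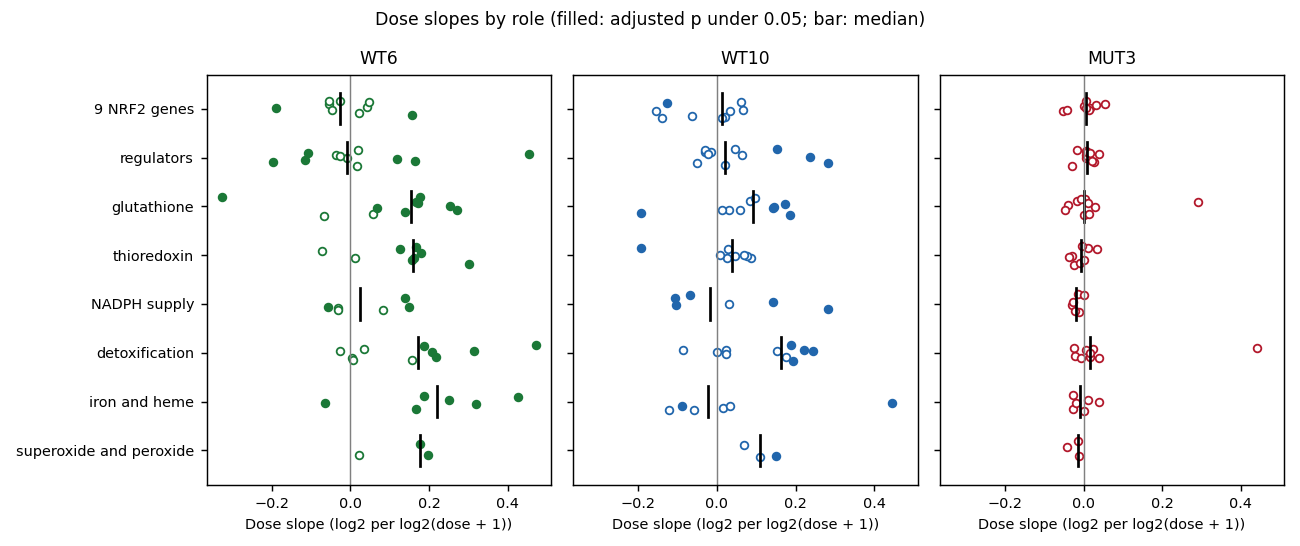
Dose slopes of the 9 NRF2 genes and of 54 pathway genes by role in WT6, WT10 and MUT3 (log2 units per unit of log2(dose + 1)); each point is 1 gene, filled where the adjusted p was under 0.05, and black bars are medians. The pathway medians in WT6 lie at 0.15 or above for 5 of the 7 roles and that of the 9 genes at -0.03; without WT6 at 5 and 25 ng/ml the detoxification median (0.18) alone lies there, and with length and GC trends removed the highest is 0.12.

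Among 11 regulators, 3 rose and 3 fell in WT6 and 3 rose in WT10. Without WT6 at 5 and 25 ng/ml, 2 rose in WT6, which were SQSTM1 and BACH1, and 0 fell, beside 130 and 52 of 12644 genes. SQSTM1, the autophagy receptor p62 that sequesters KEAP1, went from 9209 to 10344, 14435, 19062 and 38038 in WT6 and from 22050 to 21727, 23347, 27570 and 45649 in WT10, while MUT3 stayed between 23286 and 26002. SQSTM1 rose in WT6 (0.45, SE 0.03, adjusted p = 1.06e-06) and in WT10 (0.24, SE 0.03, adjusted p = 0.00038), and differed from MUT3 by 0.33 (SE 0.04, adjusted p = 0.000404). SQSTM1 also rose in WT6 without 5 and 25 ng/ml (0.36, adjusted p = 0.0418), while in WT10 its slope was 0.12 (adjusted p = 0.304) without 25 ng/ml. BACH1, the repressor that competes with NRF2, rose at every dose in WT10, from 560 to 652, 796, 988 and 1370, and had counts of 324, 393, 536, 403 and 371 in WT6 and between 727 and 777 in MUT3. BACH1 passed in WT10 (0.28, SE 0.04, adjusted p = 0.000334), and the slopes of WT6 and WT10 differed (-0.26, SE 0.06, adjusted p = 0.0201). In WT6 the BACH1 slope was 0.02, and without 5 and 25 ng/ml it was 0.40 and passed (adjusted p = 0.0129).
Of the small MAF partners of NRF2, MAFF rose in both wild type clones (0.12 and 0.15, SE 0.03 each), MAFG fell in WT6 (-0.20, SE 0.04, adjusted p = 0.000994), and MAFK passed in neither. The MAFF rise in WT10 lay in the 25 ng/ml library, without which the slope was 0.04 (adjusted p = 0.662). In WT6, without 5 and 25 ng/ml, MAFF (0.10) and MAFG (-0.13) did not pass. CUL3, the scaffold of the ligase that KEAP1 serves, lay between 2516 and 2884 in WT6, 1779 and 2080 in WT10 and 2529 and 2780 in MUT3 and passed in no clone.

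In iron and heme handling, 5 of 6 genes rose and 1 fell in WT6, and 1 rose and 1 fell in WT10. Of the 6, 0 passed in WT6 without 5 and 25 ng/ml, beside 182 of 12644 genes, and the median slope went from 0.22 to 0.09. With length and GC trends removed 4 rose and 0 fell, with a median of 0.09. BLVRB, a biliverdin reductase downstream of HMOX1, rose in both clones (0.43 and 0.44, SE 0.07 and 0.08), with 695, 878, 830, 1783 and 2547 in WT6 and 532, 489, 500, 590 and 1956 in WT10, against 612 to 693 in MUT3. In WT10 the rise of BLVRB lay in the 25 ng/ml library, without which the slope was 0.05. In WT6 it was 0.15 (adjusted p = 0.732) without 5 and 25 ng/ml. FTL, the ferritin light chain that stores iron, rose in WT6 (0.32, SE 0.04, adjusted p = 5.07e-05), where its counts were 65063, 69917, 81078, 139372 and 165116, and ran between 50851 and 63862 in WT10 without passing. The slopes of FTL in WT6 and WT10 differed by 0.30 (SE 0.06, adjusted p = 0.0148). Its WT6 slope was 0.17 (adjusted p = 0.220) without 5 and 25 ng/ml. FECH, the last enzyme of heme synthesis, fell in WT6 (-0.06) and WT10 (-0.09), and had a WT6 slope of 0.04 (adjusted p = 0.163) with length and GC trends removed. Ferritin and peroxiredoxin genes have many processed copies in the genome, and their counts are uncertain to that extent.

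Among 10 tested glutathione genes, 7 rose and 1 fell in WT6 and 4 rose and 1 fell in WT10. Of the 10, 0 passed in WT6 without 5 and 25 ng/ml, beside 182 of 12644 genes, and the median slope went from 0.15 to -0.04. With length and GC trends removed 3 rose and 2 fell, with a median of -0.02. The fall was that of ABCC1, the exporter of glutathione conjugates, with -0.33 in WT6 and -0.19 in WT10 (SE 0.04 each). Its counts ran from 640 to 1684 in WT6, 802 to 1456 in WT10 and 1380 to 1476 in MUT3. MGST1, a microsomal glutathione transferase, rose in both clones (0.18 and 0.17, SE 0.04 each), and GSTM3 rose in WT6 (0.25, SE 0.04). GSR, which reduces oxidized glutathione, rose in WT10 (0.15, SE 0.03). The WT6 slopes of ABCC1 (-0.13), MGST1 (0.09) and GSTM3 (0.09) did not pass without 5 and 25 ng/ml, and that of MGST1 was 0.02 (adjusted p = 0.236) with length and GC trends removed.
In the thioredoxin group, 6 of 8 rose in WT6, among them PRDX5 (0.30, SE 0.05), and in WT10 0 rose and 1 fell, which was the thioredoxin inhibitor TXNIP (-0.19, SE 0.04; -0.03 without 25 ng/ml). Of the 8, 0 passed in WT6 without 5 and 25 ng/ml, beside 182 of 12644 genes. Their median slope was 0.02 in place of 0.16, and the PRDX5 slope was 0.01 (adjusted p = 0.960). With length and GC trends removed 1 rose and 2 fell there, with a median of 0.02. Of 6 genes of NADPH supply, 2 rose and 1 fell in WT6, and 2 rose and 3 fell in WT10. In WT10 the rises were those of IDH1 (0.28) and ME1 (0.14), and the falls included TKT (-0.11) and PGD (-0.07). With length and GC trends removed 2 rose and 3 fell in WT6, and likewise in WT10. Without WT6 at 5 and 25 ng/ml 1 rose and 0 fell in WT6, beside 130 and 52 of 12644 genes. IDH1 also rose in WT6 (0.14, SE 0.03), as it did without 5 and 25 ng/ml (0.26, adjusted p = 0.0316).
Of 10 tested detoxification genes, 5 rose in WT6 and 4 in WT10, among them the carbonyl reductase gene CBR1 (0.32 and 0.22) and OSGIN1 (0.22 and 0.19) in both. Without WT10 at 25 ng/ml the WT10 slopes were 0.14 for CBR1 (adjusted p = 0.332) and 0.03 for OSGIN1 (adjusted p = 0.833). Without WT6 at 5 and 25 ng/ml 1 of 10 rose in WT6, beside 130 of 12644 genes. It was CBR1 (0.36, adjusted p = 0.00986), and OSGIN1 had 0.27 (adjusted p = 0.260). The largest MUT3 slope in the list was that of AKR1C1, 0.44 (SE 0.10) with an adjusted p of 0.574. CAT, the catalase that breaks down hydrogen peroxide, rose in WT6 (0.18, SE 0.02) and in WT10 (0.15, SE 0.02), and its MUT3 counts stayed between 1072 and 1181. CAT also rose in WT6 without 5 and 25 ng/ml (0.21, adjusted p = 0.0402), and its WT10 slope without 25 ng/ml was 0.14 (adjusted p = 0.148).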

How the data were processed

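The authors selected polyadenylated RNA, sequenced 75-base read pairs, mapped them to hg19 with STAR and counted them per gene with HTSeq 0.5.4 under its default settings, which assume stranded reads. They deposited 1 table, in which each value is a signal, the count divided by the DESeq size factor of the library. The annotation, and whether the libraries keep strand, are not given in the sources used here. Between 56.5% and 59.6% of all tallied reads of a library were counted to no gene (no feature). The cause of this share was not tested. Read numbers were recovered from the smallest step in each column, and 100% of values came out whole (tolerance 0.001). On these reads edgeR called 7113 genes in WT6, 2489 in WT10 and 1 in MUT3. Genes with a mean of at least 10 in each clone (12644) were fitted with limma 3.58.1 on log2(value + 1) with vooma weights, with 6 coefficients and 9 residual degrees of freedom (R 4.3.3). Alternatives used edgeR 4.0.16 and DESeq2 1.42.0. Lengths and positions are from GENCODE release 44 on hg19, matched by symbol for 19556 genes and by an older symbol for 1926. The code was tested on simulated data. The 9 genes, the 57 pathway genes and the markers were chosen with earlier results of these data known. Pathway genes named in the text are the 12 with the largest difference from MUT3 past the threshold, plus SLC3A2, BACH1, CUL3 and the small MAF genes. TXNIP, FECH, GSR, ME1, TKT, PGD, AKR1C1 and GGT1 were named after their values were seen. Counting intervals leave out any spread between cultures.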

Additional observations from a re-analysis of the deposited data

Results flagged for a closer look

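The dose slope of HMOX1 differed between WT6 and WT10 by 0.29 (limma, adjusted p = 0.0125) and between WT10 and MUT3 by -0.18 (adjusted p = 0.0431). The first was not past the threshold without the 25 ng/ml libraries (0.31, adjusted p = 0.137), and the second was not past it with edgeR (-0.18, adjusted p = 0.0543) or without MUT3 at 25 ng/ml (-0.12, adjusted p = 0.676).

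Of the named pathway genes, 15 differed in slope between the mean of the wild type clones and MUT3. Higher in the wild type clones were BLVRB by 0.46, SQSTM1 by 0.33, CBR1 by 0.24, IDH1 by 0.24, MGST1 by 0.22, PRDX5 by 0.20, SLC3A2 by 0.19, OSGIN1 by 0.19, FTL by 0.19, GSTM3 by 0.18, CAT by 0.18 and MAFF by 0.13. Lower were ABCC1 with -0.26, TXNIP with -0.17 and FECH with -0.090. Without the 25 ng/ml libraries 0 of 54 pathway genes passed, beside 1 of 12644 genes. Without WT10 at 25 ng/ml alone, SQSTM1, CBR1, IDH1, CAT and ABCC1 were past the threshold and the other 10 were not, among them BLVRB (0.27), OSGIN1 (0.11), SLC3A2 (0.088) and MAFF (0.074). A mean over 2 clones does not show that each differed: FTL had a slope of 0.02 in WT10.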

How the results depend on the processing

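Of 9 genes, 2 passed for the slope in WT6, 1 in WT10, 0 in MUT3, 0 for the wild type mean minus MUT3, 1 for WT10 minus MUT3 and 1 for WT6 minus WT10. With edgeR it was 1 in WT6 and 0 for WT10 minus MUT3, and with DESeq2 2 in WT10 and 3 for WT6 minus WT10. WT10 minus MUT3 gave 0 with no filter, with no weights, with the dose in ng/ml and with its rank. WT6 minus WT10 gave 0 with the dose in ng/ml. The rank of the dose gave 1 in WT6 and 2 in WT10. The RBM47 count in place of the dose, and any doxycycline against none, gave 0 throughout, and the latter also 0 for the level of WT10 against MUT3. Levels were not tested on the RBM47 scale, where the intercept lies outside the data. Without the 25 ng/ml libraries, WT10, WT10 minus MUT3 and WT6 minus WT10 gave 0. With length and GC trends removed, it was 4 in WT10, 2 for the wild type mean minus MUT3, 2 for WT10 minus MUT3 and 3 for WT6 minus WT10. Each clone fitted alone gave 1 in WT6, 3 in WT10 and 1 in MUT3. Leaving out 1 library at a time gave 1 to 2 in WT6, 0 to 3 in WT10, 0 to 1 for the wild type mean minus MUT3, 0 to 1 for WT10 minus MUT3 and 0 to 3 for WT6 minus WT10. Alternatives chosen after seeing the data left out WT6 at 5 and 25 ng/ml (1 in WT6, 5 in WT10, 1 for the wild type mean minus MUT3, 2 for WT10 minus MUT3, 0 for WT6 minus WT10) or at 2.5 and 5 ng/ml (6 in WT10, 2 for the wild type mean minus MUT3, 2 for WT10 minus MUT3, 4 for WT6 minus WT10). A fit with the clones paired by dose, also chosen after seeing the data, gave 1 for the wild type mean minus MUT3 (KEAP1), 1 for WT10 minus MUT3 and 3 for WT6 minus WT10 (HMOX1, NFE2L2 and NQO1); the labels number no replicates. All clones share 1 estimate of the spread, so leaving out WT6 libraries changes the calls in WT10. Where no value shows a cause, it was not tested.

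Directions turned for SLC7A11 in WT6 (0.0555 without the 25 ng/ml libraries, 0.30 without WT6 at 5 and 25 ng/ml, and from -0.27 to 0.0557 leaving out 1 library), for SLC3A2 in WT10 (-0.0645 without the 25 ng/ml libraries, and from -0.0646 to 0.23 leaving out 1 library) and for CUL3 in WT6 (0.10 with trends removed). Other slopes that had not passed also changed sign, in WT6 those of GCLC and GCLM (6 of 30 alternatives each; -0.077 to 0.11 and -0.11 to 0.057 leaving out 1 library), NFE2L2 (3), TXNRD1, NQO1, BACH1 and MAFK (2 each), and in WT10 those of FTL (6), SRXN1 and MAFK (3 each), PRDX5 and MAFG (2 each) and GCLM (1). The difference from MUT3 changed sign for SLC7A11 and MAFK (2 each), and that of WT6 from WT10 for NFE2L2 (1).

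Over all genes, 7272 passed in WT6, 2527 in WT10, 3114 for the wild type mean minus MUT3, 711 for WT10 minus MUT3 and 1817 for WT6 minus WT10. These fell to 4688, 17, 1, 0 and 7 without the 25 ng/ml libraries, and to 2, 89, 0, 0 and 0 with the RBM47 count as the scale. With trends removed, 4368 passed in WT10 and 2254 for WT10 minus MUT3. Without WT6 at 5 and 25 ng/ml the counts were 182, 4915, 1595, 3059 and 6, in the same order. Without WT6 at 2.5 and 5 ng/ml, 4863 passed in WT10 and 5621 for the wild type mean minus MUT3. In that fit 2987 passed for WT10 minus MUT3 and 4615 for WT6 minus WT10.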

Other observations

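Over the 15 libraries, with each clone centred on its own mean, the 9 genes did not follow one course. Of 36 pairs, NFE2L2 and GCLC had the highest Pearson r (0.86), followed by GCLM and TXNRD1 (0.73), and NFE2L2 and HMOX1 had the lowest (-0.74). KEAP1 and NFE2L2 had an r of -0.39. The gene with the highest r among all tested was WAC for NFE2L2 (0.94), C11orf84 for KEAP1 (0.96), SRSF1 for SLC7A11 (0.94), COPB1 for GCLC (0.93), ARRDC4 for GCLM (0.90), SWAP70 for TXNRD1 (0.87), LOC100506713 for SRXN1 (0.91), FST for NQO1 (0.88) and NSUN5 for HMOX1 (0.93). These values share libraries and depth and describe the 15 libraries only. For none of the 9 genes was another of the 9 the most alike.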
